A study of Mus musculus with 12 samples.

Results

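The genes described here are 54 genes of mitosis, chosen by symbol: cyclins and kinases that drive entry into mitosis, and genes of the spindle, the kinetochore, the spindle checkpoint, cytokinesis and chromosome condensation. All 54 symbols matched exactly 1 of the 55335 genes in the files, and all 54 had enough reads for a test. The RNA came from muscle stem cells, or MuSCs, the resident stem cells of skeletal muscle, sorted from hindlimb of Pax7-ZsGreen mice of 3 to 6 months. Every group carries this reporter, which marks cells that express the MuSC factor Pax7, and no group carries another allele. F cells went into TRIzol at the sort, 2d-U and 5d-U cells grew uncompressed to day 2 and day 5 on plastic coated with Matrigel and fibronectin in growth medium, and 2+3d-C cells grew for 2 days uncompressed and then 3 days under a pillar device that limits cell height. Each group has 3 libraries: replicates 1, 4 and 5 of F, 1, 2 and 3 of 2d-U, 1, 2 and 6 of 5d-U, and 4, 5 and 10 of 2+3d-C. Values per library are given in that order throughout. The labels do not state whether libraries of a group came from separate animals or cultures, so p-values measure only the spread between these libraries, which may be technical.

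Most of these genes are transcribed in waves. In dividing cells their mRNAs build up in G2 and mitosis and fall after division, and in quiescent cells they are repressed by the DREAM complex, which binds promoters at a short element called CHR (cell cycle genes homology region), while the factors B-Myb and FoxM1 act there in cycling cells. The factor NF-Y binds CCAAT boxes in many of the same promoters. MuSCs in resting adult muscle are quiescent, and they enter the cell cycle after injury or when placed in culture. Levels of these mRNAs are therefore widely used as a reading of how many cells in a sample are dividing. In bulk RNA, fewer dividing cells and less of each mRNA per dividing cell cannot be told apart.

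Depth ran from 12540745 to 62424851 reads on genes, and 2+3d-C held both extremes, replicate 5 the lowest and replicate 4 the highest. The limit of detection was taken as 3 reads, which stood for 0.0481 CPM at the highest depth and 0.239 at the lowest. PCR copies were not removed by molecular identifiers, and the limit covers counting error alone. RPKM (reads scaled by exon length and library size, with TMM-scaled library sizes) is used for levels, since it can be compared between genes. The test of group differences was edgeR's quasi-likelihood test, two-sided, over 22635 genes, and calls were made at an adjusted p under 0.05. All adjusted p-values below are from this test with Benjamini-Hochberg adjustment over those genes. An exact permutation test of 3 libraries against 3 cannot go below a p of 0.1, so none was made on single genes.

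The mitosis genes were high in both uncompressed cultures and low in F and 2+3d-C cells. Summed over the 54 genes, the level was 622, 728 and 358 CPM for F, 8595, 7916 and 7870 for 2d-U, 6579, 9128 and 11010 for 5d-U, and 279, 571 and 329.5 for 2+3d-C. The lowest uncompressed culture thus lay far above the highest F or 2+3d-C library, and the F and 2+3d-C libraries overlapped. Group means were 569 ± 191 CPM in F, 8127 ± 406 in 2d-U, 8906 ± 2224 in 5d-U and 393 ± 156 in 2+3d-C (SD, n = 3). The mean of 5d-U was 22.6 times that of 2+3d-C. The mean of F was 1.45 times that of 2+3d-C with TMM scaling and 2.08 times as a plain share of reads. Whether the F and 2+3d-C libraries overlapped, and the order of 2d-U and 5d-U, depended on TMM scaling. As a plain share of the reads on genes, the sum was 0.0608%, 0.0876% and 0.0431% for F and 0.0238%, 0.0377% and 0.0307% for 2+3d-C, so that each F library was above each 2+3d-C library. It was 1.01%, 0.994% and 0.98% for 2d-U and 0.722%, 0.89% and 0.736% for 5d-U, so that each 5d-U library was below each 2d-U library. The TMM factor of replicate 6 of 5d-U, the library with 11010 CPM, was 0.669, the lowest of the uncompressed cultures. That of replicate 5 of 2+3d-C, the library with 571 CPM, was 0.66, the lowest of all libraries. On the plain share the mean of 5d-U was 25.5 times that of 2+3d-C.

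**Figure D1:**
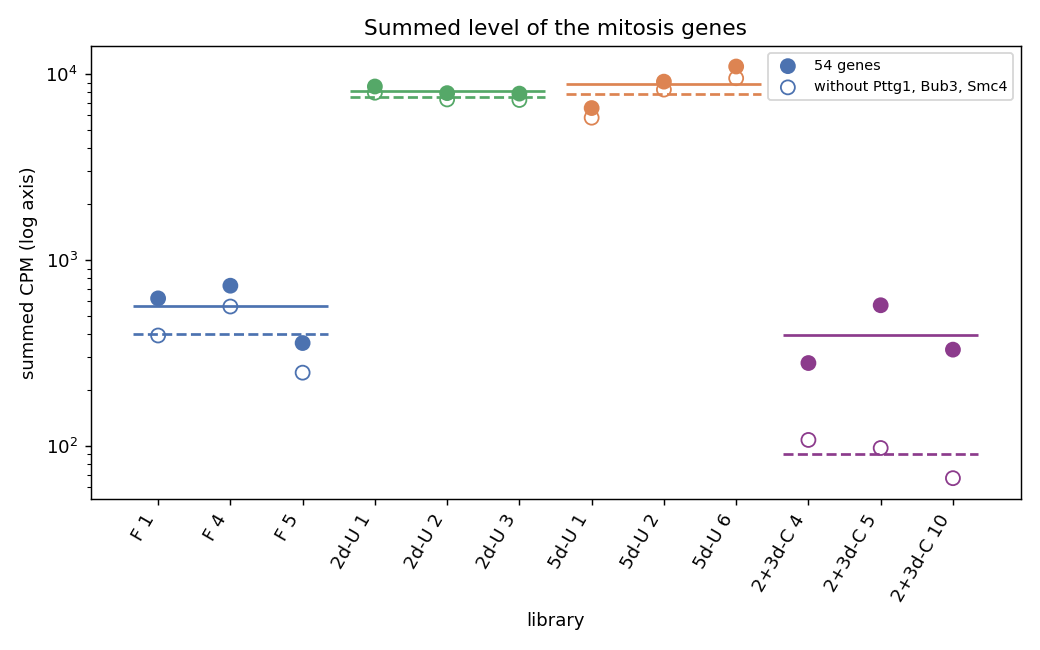
Summed CPM of the 54 mitosis genes in each of 12 libraries on a log axis, coloured by group, with lines at group means; filled points are all 54 genes and open points leave out Pttg1, Bub3 and Smc4. The uncompressed cultures lie between 6579 and 11010, and F and 2+3d-C libraries between 279 and 728.

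In 2+3d-C against 5d-U, 50 of 54 genes fell, none rose and 4 did not pass the test. Of all tested genes, 13.4% were called lower in this comparison. This share depends on which genes are tested. Above a mean of 5 CPM, 2354 of 10816 genes were called lower and 2329 higher, and the same 50 of the 54 fell. The median log2 fold change over the 54 genes was -7.04, also with genes at the limit of detection set to their bound, against -1.05 over all tested genes (-1.21 without TMM scaling). That all-gene median depended on which genes were tested, and was -0.0001 above a mean of 5 CPM. In 53 of 54 genes every 2+3d-C library was below every 5d-U library, which held for 29.7% of all tested genes. The 4 genes that did not pass were Pttg1 at 0.13 (SE 0.56, adjusted p = 0.868), Cdc25c at -4.07 (SE 1.46, adjusted p = 0.0581), Kif18a at -2.83 (SE 1.12, adjusted p = 0.0775) and Cenpn at -3.70 (SE 1.31, adjusted p = 0.0549), all as log2 fold changes.

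Against 2d-U, the state in which the cells were when compression began, 49 of 54 genes fell and none rose, beside 8.63% of all tested genes called lower. The median log2 fold change was -7.22 (-6.94 with genes at the limit set to their bound), against 0 over all tested genes. Above a mean of 5 CPM the all-gene median was 0.24, and 1688 of 10816 genes were called lower. Every 2+3d-C library was below every 2d-U library in 53 genes (17.4% of all tested genes), and the exception was Pttg1, which was higher in every 2+3d-C library. The 5 genes that did not pass were Pttg1 at 1.51 (SE 0.57, adjusted p = 0.0686), Bub3 at -1.17 (SE 0.43, adjusted p = 0.0594), Cdc25c at -4.01 (SE 1.46, adjusted p = 0.0579), Kif18a at -2.96 (SE 1.12, adjusted p = 0.0673) and Cenpn at -3.52 (SE 1.30, adjusted p = 0.0614). Pttg1 was called higher under 3 of 20 alternatives, among them without replicate 4 of 2+3d-C and without replicate 6 of 5d-U. Both comparisons share the 2+3d-C libraries. No member's direction in them turned without TMM scaling.

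The rise on the way into culture ran the other way. In 2d-U against F, 52 of 54 genes rose and none fell, beside 10.6% of all tested genes called higher, with a median log2 fold change of 3.75 against -1.63 over all tested genes. Above a mean of 5 CPM the all-gene median was -0.21 there and -0.07 in 5d-U against F. In that set, 1887 and 2462 of 10816 genes were called higher in these comparisons. Every 2d-U library was above every F library in 53 genes, beside 20.4% of all tested genes, and the exception was Pttg1 at -0.46 (SE 0.56, adjusted p = 0.517). Cdc25c did not pass either (3.61, SE 1.42, adjusted p = 0.051). In 5d-U against F, 46 genes rose and none fell, beside 11.6% of all tested genes, with a median of 3.95 against -0.41. The 8 that did not pass were Pttg1 at 0.91 (adjusted p = 0.322), Espl1 at 1.76 (0.289), Cdc25b at 1.62 (0.0964), Cdc25c at 3.66 (0.0866), Kif18a at 3.09 (0.0663), Bub1b at 2.77 (0.0614), Cenpn at 3.70 (0.0577) and Ncapd2 at 2.66 (0.0569), with the adjusted p in parentheses.

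Between the uncompressed cultures no gene passed the test. In 5d-U against 2d-U edgeR called 0 of 54 genes, beside 2.12% of all tested genes called in either direction, and DESeq2 called 0 as well. At an unadjusted p under 0.05 there were 2 genes higher, Cenpf at 1.89 (SE 0.61, adjusted p = 0.0935) and Pttg1 at 1.38 (SE 0.57, adjusted p = 0.12), and 0 lower. A fit of these groups alone called 2 genes higher, Cenpe and Kif20b. The median log2 fold change over the 54 genes was -0.03, against 1.13 over all tested genes (0.65 without TMM scaling), and without TMM scaling the median over the 54 was -0.46. The all-gene median was 0.34 above a mean of 5 CPM and 0.14 with the 2 groups alone. In 34 of the 54 genes the groups overlapped, so 20 did not, beside 37.1% of all tested genes. The 11 genes of the centromere and kinetochore had a median of 0.83, which was 0.25 without TMM scaling, where Cenpa, Cenpi, Cenpn and Ndc80 lay below 0, and 0.34 without replicate 6 of 5d-U. In the other classes the median lay between -0.47 and 0.18, and between -0.91 and -0.23 without TMM scaling.

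The 5d-U libraries differed among themselves more than those of 2d-U, with a median over genes of the SD divided by the mean of 0.372 against 0.128. Replicate 6 of 5d-U was the highest of its group for 21 genes and the lowest for 22. Its values also went with exon length over all genes: against the mean of the other 5d-U libraries, over genes of at least 10 CPM there, the 1425 genes with the shortest exons (median 1660 bases) had a median log2 ratio of 1.25 in this library, and the 1424 with the longest (median 9644 bases) had -0.26. Among the 54 genes, the 8 with less than 3 kb of exon had a median log2 ratio to the other 5d-U libraries of 0.542, and the 46 longer genes -0.181, while the rank correlation of this ratio with exon length over the 54 genes was -0.073 (Spearman's rho across genes, which share these libraries). The part of this in single values of replicate 6 was not tested. Without replicate 6, 49 genes were called lower in 2+3d-C against 5d-U.

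In 2+3d-C against F, 28 of 54 genes fell and none rose, beside 4.47% of all tested genes called lower. Above a mean of 5 CPM, 526 of 10816 genes were called lower, with an all-gene median log2 fold change of -0.07. The median log2 fold change over the 54 genes was -2.90, against -0.76 over all tested genes (-1.24 without TMM scaling), and every 2+3d-C library was below every F library in 35 genes (18.3% of all tested genes). The genes that fell included the 15 that had 3 or fewer reads in each 2+3d-C library, and of these 14 had more than 3 reads in each F library. The lower limit of their fold against F ranged from 11.2 for Kif20b to 61.8 for Prc1. Kif20b was the one not above 3 reads in each F library. Some of these limits rest on single libraries. Without replicate 4 of F, 8 of the 15 fell by more than 1.5 times, and the range was 7.38 for Kif20b to 34.8 for Mki67, with Prc1 at 33.2. Without replicate 1 of F, that of Cenph went from 18.8 to 9.85. Without replicate 5 of 2+3d-C, the shallowest library, all 15 rose, to between 21.4 and 119, as did those against 5d-U, to between 408 and 2790. In replicates 1, 4 and 5 of F Kif20b had 0, 108 and 108 reads. The count of 28 rests in part on replicate 4 of F, which was the highest F library for 37 of 54 genes: without it 18 genes were called, all among the 28. Other single libraries ended calls too: replicate 5 of F those of Cdk1, Kif4, Kif11, Kif15, Kif20a, Kif20b and Nusap1, replicate 5 of 2+3d-C those of Ccnb1, Cdk1, Kif11, Kif20a and Nusap1, replicate 4 of 2+3d-C those of Cdk1, Kif4 and Kif20a, and replicate 10 of 2+3d-C that of Kif4. A fit of F and 2+3d-C alone called 15, and adding a term for libraries that have reads on silent gene families called 18, all of them also among the 28. Those called in every one of 20 alternatives numbered 15 and were Tpx2 and 14 of the 15 genes at 3 or fewer reads, all but Kif20b.

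Those silent families (1850 genes such as olfactory receptors) had 5.11 and 7.23 reads per kb of exon in replicates 4 and 5 of F, 3.84 and 0.633 in replicates 1 and 6 of 5d-U, and at most 0.228 in the other 8 libraries. At that density, the exons of the 54 genes would hold 6.85% and 15.5% of the reads counted on them in replicates 4 and 5 of F, and 0.463% in replicate 1. In 5d-U the share was at most 0.771%. With these reads subtracted, 26 genes were called lower in 2+3d-C against F.

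Markers of other cell types also differed between the groups. Summed over 6 endothelial markers the level was 919 to 1483 CPM in F and 167 to 306 in 2+3d-C, against 2.81 to 7.13 in 2d-U and 1.74 to 30.3 in 5d-U, and all 6 had over 3 reads in every F and every 2+3d-C library. Fibroadipogenic markers summed to 2446 to 7997 CPM for F, 207 to 243 for 2d-U, 11.9 to 192 for 5d-U and 497 to 754 for 2+3d-C, with 5 of 6 above 3 reads in every 2+3d-C library. Of 6 immune markers, Ptprc, Adgre1 and Cd3e were at 0 in every 2+3d-C library, and the sum there was 0.274 to 6.71 CPM against 119 to 208 in F. The 4 glial markers summed to 185 to 257 CPM in F, 71.8 to 133 in 2+3d-C and at most 7.92 in either uncompressed culture, and the 4 erythroid ones to 120.3 to 515, 19.7 to 226 and at most 0.348. Pericyte and smooth muscle markers summed to 702 to 956 CPM for F, 66.8 to 89.4 for 2d-U, 60.5 to 741 for 5d-U and 433 to 775 for 2+3d-C. Of these 6 markers, 1 had a log2 fold change above 0 in 2+3d-C against F and 5 below. They include Notch3, which the paper also followed in cultured MuSCs, so this sum need not come from other cells alone. The 8 MuSC markers were all above 3 reads in every library of F, 5d-U and 2+3d-C, with sums of 13135 to 14700 CPM in 2+3d-C and 1977 to 5749 in the other groups. Differentiation genes of myocytes summed to 23.2 to 2439 CPM for F, 118 to 164 for 2d-U, 293 to 4132 for 5d-U and 41.5 to 133 for 2+3d-C, where Mymk, Mymx and Myh3 were at 0. Of these 7 genes, 2 had over 3 reads in every 2+3d-C library. In 2+3d-C against each uncompressed culture, 1 of the 7 had a log2 fold change above 0 and 6 below. The part of other cell types in the levels of the mitosis genes was not tested.

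**Figure D2:**
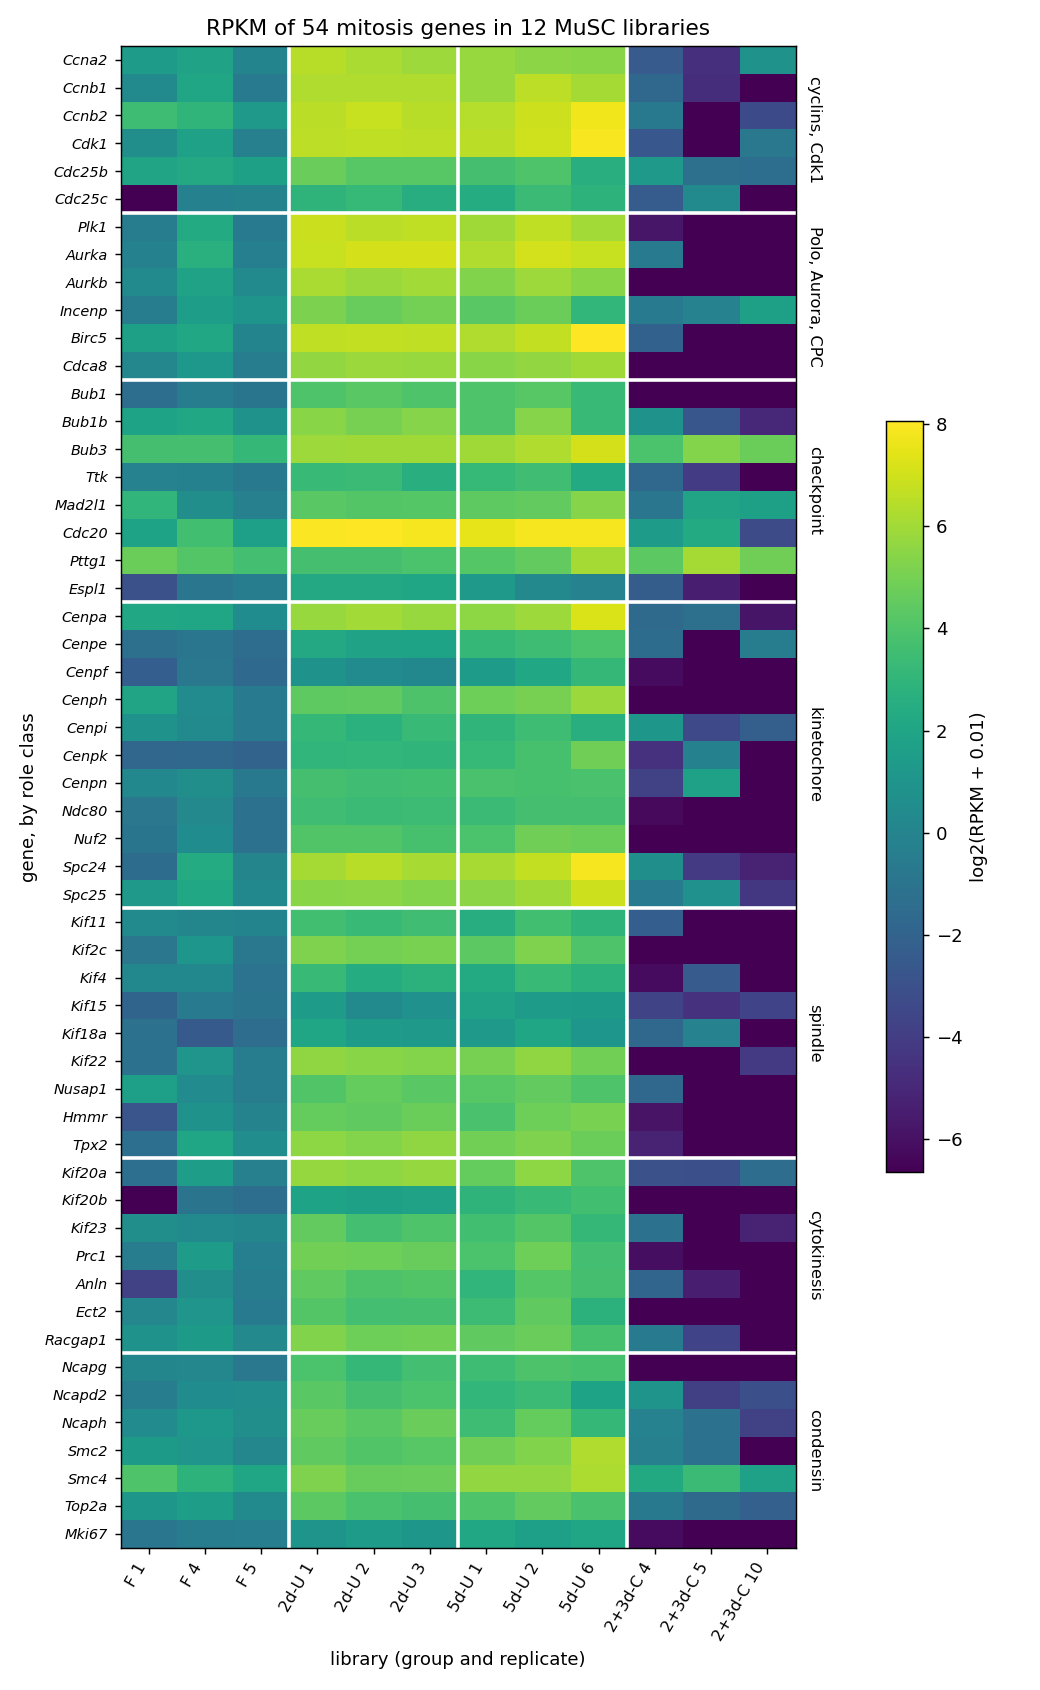
log2(RPKM + 0.01) of the 54 genes (by role class) in the 12 libraries; white lines part the groups and the classes. The 6 uncompressed cultures form a bright block, and in the 2+3d-C libraries most genes are at or near 0 while Pttg1, Bub3 and Smc4 keep colour.

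Cyclin-dependent kinase 1 and its cyclins start mitosis, and the Cdc25 phosphatases remove the phosphate groups that hold Cdk1 inactive. In this class of 6 genes, 5 fell in 2+3d-C against each of the cultures, and 3 fell against F. Cdk1 (ENSMUSG00000019942.13, chr10:69335146-69352938) RPKM was 1.53, 3.36 and 0.836 for F, 97, 101 and 97.7 for 2d-U, 92.6, 126 and 241 for 5d-U and 0.148, 0 and 0.574 for 2+3d-C. Each uncompressed culture was above each F library, and each F library above each 2+3d-C library, where 39, 0 and 62 reads were counted. The log2 fold change of Cdk1 was -9.23 (SE 1.07, adjusted p = 5.23e-05) against 5d-U and -2.91 (SE 0.82, adjusted p = 0.0485) against F. Ccnb2 (ENSMUSG00000032218.7, chr9:70407692-70421547), a B-type cyclin, had the second highest mean level of the class and the smallest p in 2+3d-C against 5d-U. Ccnb2 RPKM was 11.2, 7.83 and 2.46 for F, 94.4, 112 and 88.7 for 2d-U, 84.1, 124 and 209.7 for 5d-U and 0.612, 0 and 0.0895 for 2+3d-C. The groups F and 2+3d-C did not overlap, and the log2 fold change was -8.89 (SE 0.98, adjusted p = 4e-05) against 5d-U and -4.61 (SE 0.83, adjusted p = 0.00848) against F. Ccnb1, the other B-type cyclin, fell by 9.11 on the log2 scale against 5d-U (adjusted p = 0.000117) and by 3.95 against F (0.029, as adjusted p). The annotation also holds a pseudogene of Ccnb1, and reads that match both could be split between them. Ccna2, the A-type cyclin, was held mainly by replicate 10 of 2+3d-C, with 39, 1 and 169 reads, and its log2 fold change was -6.07 (SE 1.02, adjusted p = 0.000905) against 5d-U and -1.78 (SE 0.85, adjusted p = 0.143) against F.

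The phosphatases were the exceptions of this class. Cdc25b RPKM was 3.81, 4.6 and 3.24 for F, 26, 19 and 18.5 for 2d-U, 13.4, 16.4 and 6.09 for 5d-U and 2.42, 0.421 and 0.38 for 2+3d-C. It fell against 5d-U (-3.44, SE 0.70, adjusted p = 0.00297). Each 2+3d-C library was also below each F library, and that difference did not pass (-1.82, SE 0.66, adjusted p = 0.0939). Cdc25c RPKM was 0, 0.875 and 0.936 for F, 7.52, 9.05 and 5.6 for 2d-U, 5.54, 10.3 and 7.11 for 5d-U and 0.187, 1.25 and 0 for 2+3d-C, so that replicate 5 of 2+3d-C, with 51 reads, was above each F library while replicate 10 had none. Its 2+3d-C and 5d-U libraries did not overlap.

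Polo-like kinase 1 and Aurora A build the spindle poles, and Aurora B with Incenp, survivin (Birc5) and borealin (Cdca8) forms the chromosomal passenger complex, which corrects wrong attachments of chromosomes to the spindle. All 6 genes fell in 2+3d-C against both cultures, and 4 fell against F. Birc5 (ENSMUSG00000017716.15, chr11:117849251-117855743) RPKM was 3.2, 4.48 and 0.997 for F, 101, 105 and 100.2 for 2d-U, 80.1, 103 and 265 for 5d-U and 0.226, 0 and 0 for 2+3d-C. The groups of low level did not overlap, since replicate 4 alone of 2+3d-C held reads (41), and the log2 fold change was -10.52 (SE 1.20, adjusted p = 4.7e-05) against 5d-U and -4.83 (SE 0.97, adjusted p = 0.0146) against F. Aurka (ENSMUSG00000027496.15, chr2:172356190-172370535) RPKM was 0.888, 6.5 and 0.79 for F, 115, 138 and 138 for 2d-U, 80.5, 129.9 and 114 for 5d-U and 0.682, 0 and 0 for 2+3d-C. Replicate 4 of F stood above the other F libraries, and replicate 4 of 2+3d-C was the one library of its group with reads (92), so the log2 fold change was -8.62 (SE 1.35, adjusted p = 0.000518) against 5d-U and -3.31 (SE 1.08, adjusted p = 0.0738) against F.

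Aurkb (ENSMUSG00000020897.12, chr11:69045647-69051664) RPKM was 1.24, 3.48 and 1.31 for F, 73.7, 57.6 and 64.9 for 2d-U, 38.6, 60.3 and 43.6 for 5d-U and 0, 0 and 0 for 2+3d-C. No read was counted on it in any 2+3d-C library. With 3 reads taken for each of these libraries, its level was at least 755-fold lower than 5d-U (adjusted p = 2.8e-06), at least 1040-fold lower than 2d-U and, against F, at least 32-fold lower (adjusted p = 0.00021), or 20.3-fold without replicate 4 of F. Plk1, with 1, 0 and 0 reads in 2+3d-C, was at least 887-fold lower than 5d-U and, against F, at least 25.3-fold lower (adjusted p = 9.43e-06 and 0.0015). Its RPKM in F was 0.7, 5.07 and 0.633, and without replicate 4 of F the limit was 7.91-fold. Cdca8, with no read in 2+3d-C, had the highest limit of all 15 such genes, at least 1460-fold lower than 5d-U. Incenp, the scaffold of the complex, had an RPKM of 0.721, 2.89 and 1.95 for F, 35.7, 25.4 and 31.2 for 2d-U, 19.9, 26.5 and 8.37 for 5d-U and 0.68, 0.893 and 3.31 for 2+3d-C. All 2+3d-C libraries held reads, and replicate 10 was above each F library. Incenp fell against 5d-U (-3.48, SE 0.70, adjusted p = 0.00292) and did not pass against F.

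The spindle checkpoint holds back anaphase until each chromosome is attached. Bub1, BubR1 (Bub1b), Bub3, Mps1 (Ttk) and Mad2 (Mad2l1) form the signal, which blocks Cdc20, the activator of the anaphase-promoting complex. That complex then destroys securin (Pttg1), which sets free separase (Espl1). Of these 8 genes 7 fell in 2+3d-C against 5d-U, 6 against 2d-U and 1, Bub1, against F. Cdc20 (ENSMUSG00000006398.15, chr4:118432901-118437352), the gene with the highest mean level of all, had an RPKM of 3.65, 12 and 3.18 for F, 251, 266 and 236 for 2d-U, 182, 228 and 232 for 5d-U and 2.72, 5.11 and 0.0979 for 2+3d-C. It fell by 6.37 on the log2 scale against 5d-U (SE 1.00, adjusted p = 0.000551), but F and 2+3d-C overlapped, at -1.28 (SE 0.82, adjusted p = 0.272). Bub1 (ENSMUSG00000027379.13, chr2:127801122-127831865) had no read in any 2+3d-C library, and its RPKM was 0.382, 0.708 and 0.511 for F, 16.1, 19.7 and 16 for 2d-U and 15.8, 18.9 and 9.76 for 5d-U. It was at least 348-fold lower than 5d-U (adjusted p = 2.8e-06) and at least 12.6-fold lower than F (adjusted p = 0.000346).

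Bub3 (ENSMUSG00000066979.6, chr7:131560222-131571895), which binds Bub1 and BubR1 at the kinetochore, was the second highest of the 54 genes in 2+3d-C. Bub3 RPKM was 13, 13.2 and 8.9 for F, 60.01, 62.8 and 62.1 for 2d-U, 62.4, 78 and 136 for 5d-U and 15, 40.5 and 26.6 for 2+3d-C. Each 2+3d-C library lay between the F libraries and the uncompressed cultures. The log2 fold change was -1.76 (SE 0.44, adjusted p = 0.0103) against 5d-U and 1.23 (SE 0.43, adjusted p = 0.0885) against F. The fall against 5d-U passed in 17 of 20 alternatives, and leaving out replicate 6 of 5d-U (adjusted p = 0.0527) or replicate 4 of 2+3d-C (adjusted p = 0.0505) was among those that ended the call. Of its partners, Bub1 had no read in 2+3d-C and Bub1b had 406, 5 and 2, where Bub3 had 5589, 2347 and 4082 reads.

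Pttg1 (ENSMUSG00000020415.16, chr11:43420250-43426251) was the one gene of the 54 that was not lower in the 2+3d-C libraries than in the cultures. Its RPKM was 26.7, 17.6 and 12.9 for F, 13.4, 13.1 and 14.9 for 2d-U, 17.8, 22.9 and 66.9 for 5d-U and 20.5, 68.5 and 29.1 for 2+3d-C. The 2+3d-C libraries overlapped those of 5d-U and stood above each 2d-U library, and replicate 5 of 2+3d-C and replicate 6 of 5d-U were the high ones. Means were 19.1 ± 7.02 in F, 13.8 ± 0.974 in 2d-U, 35.8 ± 27 in 5d-U and 39.4 ± 25.6 in 2+3d-C (SD, n = 3). No comparison of Pttg1 passed the test, and the log2 fold change in 2+3d-C against 5d-U was 0.13 with a range of -0.54 to 1.80 over 20 alternatives. The sign turned without replicate 5 of 2+3d-C (-0.54), and, for 5d-U, without replicate 1 (-0.21) or replicate 2 (-0.12). Pttg1 was the gene with the highest mean RPKM of the 54 in F and in 2+3d-C, and in 2d-U it was below the median of the 54 genes, which was 22.4, 19.6 and 18.6 RPKM in those libraries. Espl1, whose protein securin holds inactive, had 89, 1 and 0 reads in 2+3d-C and an RPKM of 4.61, 4.73 and 4.12 in 2d-U. It fell against 5d-U (-4.34, SE 1.16, adjusted p = 0.0157).

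The other genes of this class lay between. Mad2l1 RPKM was 8.17, 1.5 and 0.838 for F, 19.6, 17.4 and 18.2 for 2d-U, 21.6, 23 and 42 for 5d-U and 0.539, 3.76 and 3.21 for 2+3d-C. It fell against 5d-U (-3.53, SE 0.83, adjusted p = 0.00743) and overlapped F, where replicate 1 was the high library. Ttk and Bub1b fell by 6.04 and 5.06 on the log2 scale against 5d-U (adjusted p = 0.0011 and 0.00461), with 80, 2 and 0 reads of Ttk in 2+3d-C. Replicate 4 held most reads of both.

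**Figure D3:**
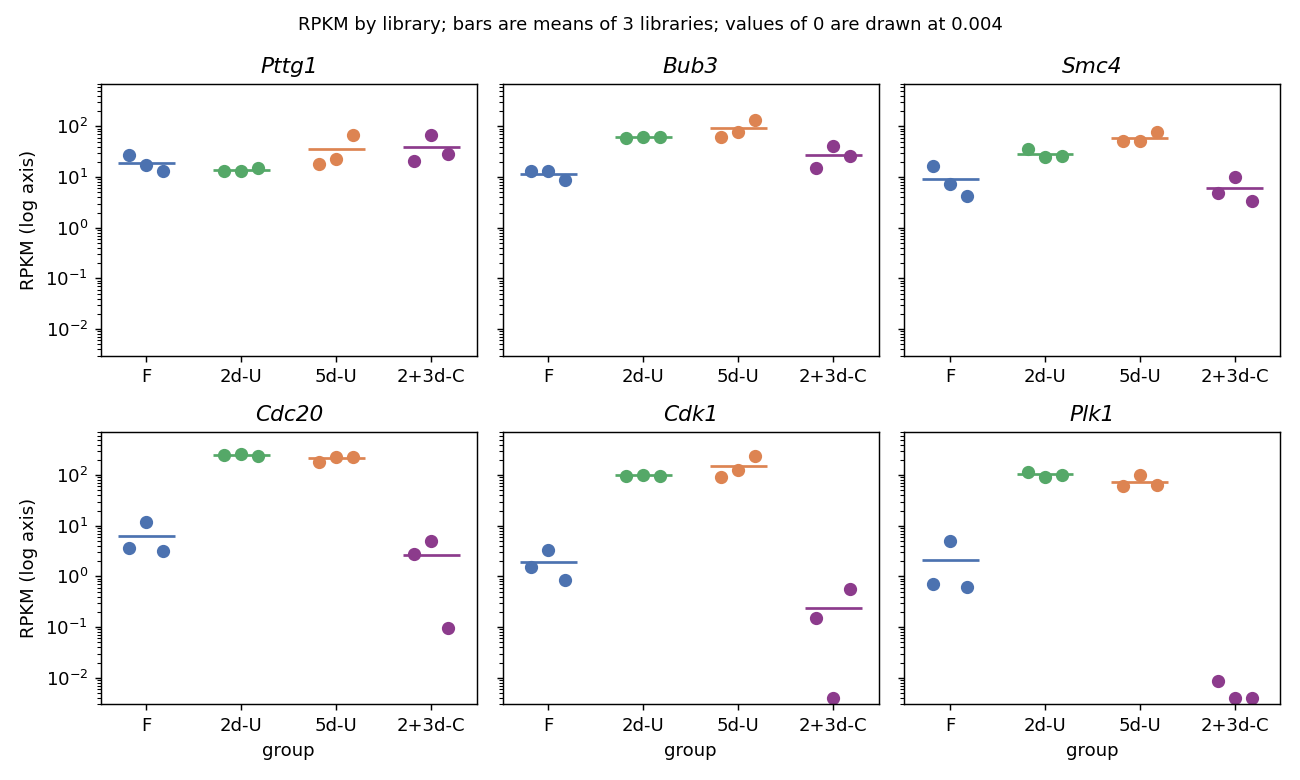
RPKM of Pttg1, Bub3, Smc4, Cdc20, Cdk1 and Plk1 by library on a log axis, with bars at the mean of 3 libraries and values of 0 drawn at 0.004. Pttg1 stays between 12.9 and 68.5 in all groups, while Plk1 goes from 61.8 or more in the uncompressed cultures to at most 1 read in each 2+3d-C library.

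Kinetochores are built on centromeres, which Cenpa, a variant of histone H3, marks. The inner proteins Cenph, Cenpi, Cenpk and Cenpn link it to the Ndc80 complex (Ndc80, Nuf2, Spc24 and Spc25), which grips the ends of microtubules. Of 11 genes, 10 fell in 2+3d-C against 5d-U, 10 against 2d-U and 5 against F. Spc24 (ENSMUSG00000074476.6, chr9:21755442-21760303) RPKM was 0.356, 5.2 and 1.02 for F, 68, 88.2 and 69.7 for 2d-U, 71, 103 and 228 for 5d-U and 1.59, 0.0469 and 0.0178 for 2+3d-C. In replicate 4 of 2+3d-C it was above 2 of the 3 F libraries, and the log2 fold change was -7.78 (SE 1.39, adjusted p = 0.00134) against 5d-U and -1.85 (SE 1.09, adjusted p = 0.228) against F. Cenpa (ENSMUSG00000029177.9, chr5:30666777-30674830) RPKM was 4.58, 4.16 and 1.43 for F, 54.8, 63.6 and 55.7 for 2d-U, 46.9, 59.9 and 148 for 5d-U and 0.33, 0.412 and 0.0078 for 2+3d-C. It was lower in each 2+3d-C than in each F library, at -8.45 (SE 1.04, adjusted p = 9.11e-05) against 5d-U and -3.80 (SE 0.86, adjusted p = 0.0239) against F. Ndc80 (ENSMUSG00000024056.10, chr17:71496100-71526857), with the smallest p of the class, had an RPKM of 0.564, 1.22 and 0.448 for F, 11.9, 10.5 and 10.9 for 2d-U, 10.2, 13.3 and 13.4 for 5d-U and 0.00289, 0 and 0 for 2+3d-C. A single read, in replicate 4, was counted in 2+3d-C, and Ndc80 was at least 431-fold lower than 5d-U (adjusted p = 2.8e-06) and 26-fold lower than F (adjusted p = 0.00021), as limits at 3 reads per library.

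Within complexes the 2+3d-C libraries held some genes and not others. Of the Ndc80 complex, Ndc80 had 1 read in all and Nuf2 none, while Spc24 had 218, 1 and 1 reads and Spc25 108, 46 and 3. Of the inner proteins, Cenph had none, Cenpi 660, 4 and 26, Cenpk 9, 38 and 0 and Cenpn 11, 91 and 0 reads. Which library held a gene differed from gene to gene: replicate 4 for Spc24 and Cenpi, and replicate 5, the shallowest, for Cenpn and Cenpk. In the paper's imaging, 2+3d-C cells were far sparser than 5d-U cells and about as dense as 2d-U cells. The number of cells behind each library is not given in the sources used here, and its part in which genes held reads was not tested. Cenpn RPKM was 1.15, 1.51 and 0.599 for F, 13, 11.8 and 12.4 for 2d-U, 14.1, 13.9 and 14.3 for 5d-U and 0.0626, 3.34 and 0 for 2+3d-C, so replicate 5 of 2+3d-C was above each F library and below each culture. It did not pass against F. Cenpe, a kinesin of the kinetochore, had 166, 0 and 138 reads and overlapped F. Cenpf, a large coiled-coil protein there, had 3, 0 and 0 reads and was at least 30.2-fold lower than F (adjusted p = 0.000654).

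Motor proteins and bundling factors shape the spindle. Kif11 pushes the poles apart with Kif15 as its reserve, Kif2c takes microtubules apart, Kif4 and Kif22 push chromosome arms, Kif18a damps chromosome movement, and Tpx2 activates Aurora A on the spindle. Of these 9 genes, which also hold Nusap1 and Hmmr, 8 fell in 2+3d-C against 5d-U, 8 against 2d-U and 8 against F. In the main fit it was the class with the largest share that fell against F. Of its genes, Tpx2, Kif2c and Hmmr were called lower than F in every alternative. Leaving out a single library ended the calls of Kif4, Kif11, Kif15 and Nusap1, so this rank is not stable. Kif22 (ENSMUSG00000030677.8, chr7:127027729-127042471) RPKM was 0.45, 2.04 and 0.723 for F, 48.3, 43.2 and 40.1 for 2d-U, 33.5, 48.4 and 29.9 for 5d-U and 0, 0 and 0.0466 for 2+3d-C. Replicate 10 alone of 2+3d-C held reads (5), and the log2 fold change was -11.25 (SE 1.09, adjusted p = 1.52e-05) against 5d-U and -6.13 (SE 0.96, adjusted p = 0.00397) against F. Tpx2 (ENSMUSG00000027469.16, chr2:152847964-152895321) RPKM was 0.409, 3.92 and 1.47 for F, 47.8, 40.4 and 49.6 for 2d-U, 30.9, 36.6 and 27.3 for 5d-U and 0.016, 0 and 0 for 2+3d-C. With 4, 0 and 0 reads in 2+3d-C, it was at -11.62 (SE 1.04, adjusted p = 9.57e-06) against 5d-U and -7.59 (SE 0.95, adjusted p = 0.000737) against F, fitted values that depend on the prior count at such reads. Kif2c (ENSMUSG00000028678.13, chr4:117159639-117182639) RPKM was 0.563, 2.08 and 0.574 for F, 36.8, 31.8 and 34 for 2d-U, 20.5, 36.5 and 16 for 5d-U and 0, 0 and 0 for 2+3d-C. Without a read in 2+3d-C it was at least 574-fold lower than 5d-U (adjusted p = 9.05e-06) and at least 25.2-fold lower than F (adjusted p = 0.000648), or 13.4-fold without replicate 4 of F.

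Kif18a was the exception here. Kif18a RPKM was 0.457, 0.17 and 0.368 for F, 3.98, 2.8 and 2.51 for 2d-U, 2.35, 4.02 and 2.12 for 5d-U and 0.294, 0.921 and 0 for 2+3d-C. The 2+3d-C libraries were below each 2d-U and 5d-U library, but replicate 5 was above each F library and replicate 10 had no read. Kif4 overlaps other genes over 15.1% of its exon length and has a pseudogene in the annotation, so its reads are less certain. Its log2 fold change against 5d-U was -7.47 (SE 1.27, adjusted p = 0.000954). Hmmr, at 2, 0 and 0 reads in 2+3d-C, was at least 746-fold lower than 5d-U and 28.4-fold lower than F (adjusted p = 1.24e-05 and 0.00178), as limits at 3 reads per library. Its RPKM in F was 0.138, 1.83 and 0.932, and the limit was 15.7-fold without replicate 4 of F. Kif11, Kif15 and Nusap1 fell against F by 3.79, 3.00 and 3.80 on the log2 scale (adjusted p = 0.0358, 0.0169 and 0.038). None of these calls held without replicate 5 of F.

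In anaphase Prc1 bundles the microtubules of the central spindle, Kif20a carries the passenger complex there, Kif23 and Racgap1 form centralspindlin, and Ect2 and anillin (Anln) set up the contractile ring. All 7 genes of this class fell in 2+3d-C against both cultures, and 4 fell against F. Kif20a (ENSMUSG00000003779.16) RPKM was 0.403, 3.05 and 0.846 for F, 53.5, 47.2 and 52.3 for 2d-U, 23.7, 47.1 and 15.8 for 5d-U and 0.117, 0.111 and 0.369 for 2+3d-C. It fell by 7.15 on the log2 scale against 5d-U (SE 0.87, adjusted p = 7.84e-05) and by 2.82 against F (SE 0.73, adjusted p = 0.037), the latter with an adjusted p of 0.189 without replicate 4 of F. Its exons overlap those of another gene over 29.3% of their length, and without strand such reads cannot be told apart. Racgap1 (ENSMUSG00000023015.14, chr15:99620496-99651656) RPKM was 1.76, 2.53 and 1.21 for F, 39, 27.8 and 30.4 for 2d-U, 21.8, 25.7 and 13.7 for 5d-U and 0.691, 0.0683 and 0 for 2+3d-C. Here replicates 4, 5 and 10 of 2+3d-C had 261, 4 and 0 reads, and each was below each F library, at -6.23 (SE 1.12, adjusted p = 0.00137) against 5d-U and -2.76 (SE 0.96, adjusted p = 0.0872) against F. Prc1 (ENSMUSG00000038943.16, chr7:80294450-80316259) RPKM was 0.698, 2.68 and 0.797 for F, 30.02, 27.8 and 24.7 for 2d-U, 14.6, 28.2 and 12.7 for 5d-U and 0.00456, 0 and 0 for 2+3d-C. At 2, 0 and 0 reads in 2+3d-C it was at least 822-fold lower than 5d-U (adjusted p = 2.8e-06) and at least 61.8-fold lower than F (adjusted p = 0.00021), or 33.2-fold without replicate 4 of F. Kif20b and Ect2 had no read in any 2+3d-C library and passed against F (adjusted p = 0.02 and 0.000465), while Kif23 and Anln did not (-2.89, SE 0.92, adjusted p = 0.0687, and -2.86, SE 1.11, adjusted p = 0.104).

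Condensin, built from Smc2, Smc4, Ncapg, Ncapd2 and Ncaph, folds chromosomes for mitosis, topoisomerase II (Top2a) untangles them, and Ki-67 (Mki67) coats them. All 7 genes fell in 2+3d-C against both cultures and 3 fell against F. Smc4 (ENSMUSG00000034349.14, chr3:69004738-69034623) RPKM was 16.3, 7.3 and 4.16 for F, 36.6, 24.5 and 25.7 for 2d-U, 51.4, 50.9 and 76.5 for 5d-U and 4.93, 10.2 and 3.39 for 2+3d-C. The 2+3d-C libraries were below each culture and overlapped F, where replicate 1 was the high library, at -3.27 (SE 0.56, adjusted p = 0.00107) against 5d-U and -0.58 (SE 0.52, adjusted p = 0.448) against F. Smc2 (ENSMUSG00000028312.19, chr4:52439243-52488260), which pairs with Smc4 in condensin, had an RPKM of 2.57, 2.06 and 1.1 for F, 21.7, 16.6 and 18.8 for 2d-U, 29.4, 38.5 and 78 for 5d-U and 0.846, 0.463 and 0 for 2+3d-C. It was lower in each 2+3d-C library than in each F library, at -6.78 (SE 1.10, adjusted p = 0.000696) against 5d-U and -2.11 (SE 0.90, adjusted p = 0.119) against F. Ncapg (ENSMUSG00000015880.13, chr5:45669919-45700546) RPKM was 1.08, 1.12 and 0.577 for F, 14.7, 8.87 and 12.5 for 2d-U, 11.4, 15.5 and 13.8 for 5d-U and 0, 0 and 0 for 2+3d-C. No 2+3d-C library had a read, and Ncapg was at least 518-fold lower than 5d-U (adjusted p = 2.8e-06) and 35.3-fold lower than F (adjusted p = 0.00021), as limits at 3 reads per library. Mki67, the common marker of dividing cells, was at 2, 0 and 0 reads in 2+3d-C and at 0.525, 0.709 and 0.757 RPKM in F, at least 36-fold lower than F (adjusted p = 0.00021). Top2a was lower in each 2+3d-C than in each F library, at -2.44 (SE 0.49, adjusted p = 0.0145). Ncaph and Ncapd2 were at -1.85 (SE 0.69, adjusted p = 0.0975) and -0.73 (SE 0.88, adjusted p = 0.595) against F, and replicate 4 of 2+3d-C held 646 reads of Ncapd2 against 3 and 15 in the others.

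**Figure D4:**
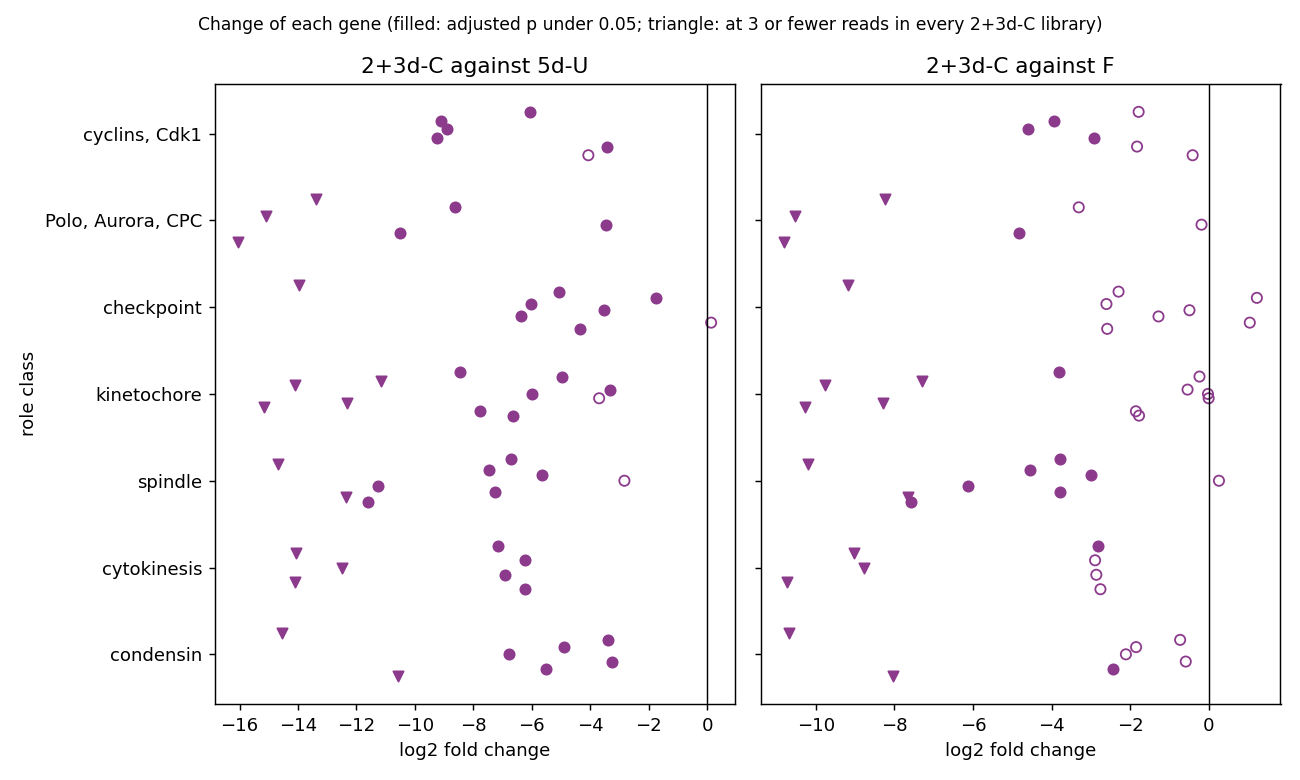
log2 fold change of each of the 54 genes by role class in 2+3d-C against 5d-U (left) and against F (right). Filled symbols have an adjusted p under 0.05, and triangles mark the 15 genes at 3 or fewer reads in each 2+3d-C library, whose fitted fold depends on the prior count. On the left 53 symbols lie below 0 and on the right 51.

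Over the 54 genes, 15 had 3 or fewer reads in every 2+3d-C library, 14 had more in 1 library, 14 in 2 and 11 in all 3. By library, 17 genes were at 3 or fewer reads in replicate 4, 33 in replicate 5 and 37 in replicate 10, of 62424851, 12540745 and 23495260 reads on genes. In F, 52 of the 54 genes had over 3 reads in every library, and in 2d-U and 5d-U all 54 did. The median over genes of the SD divided by the mean was 1.5 in 2+3d-C and 0.581 in F. A large part of the summed level in 2+3d-C came from Pttg1, Bub3 and Smc4, a set named after its values were seen. These were the 3 genes with the highest RPKM in each 2+3d-C library and in replicates 1 and 5 of F, but not in replicate 4 of F, where Cdc20 and Ccnb2 were above Smc4. Without them the sum was 108, 97.4 and 67.0 CPM for 2+3d-C, 393, 562 and 248 for F, 7957, 7321 and 7272 for 2d-U, and 5839, 8270 and 9523 for 5d-U. F and 2+3d-C then did not overlap, as they did not in the plain share of reads with all 54 genes. The ratio of 5d-U to 2+3d-C went from 22.6 to 86.9, and that of F to 2+3d-C from 1.45 to 4.42. Leaving out genes picked for their high level in 2+3d-C lowers that group most, so these changes follow from the choice and test nothing.

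Since most of these genes moved together, their promoters were searched for the elements named above. RefSeq promoters (build GRCm38.p6, 250 bases before to 50 after the start site) were found by symbol for 46 of the 54 genes. The CHR, searched as TTTGAA on both strands, was in the promoter of 32 of 46 genes (69.6%) and of 20.2% of all 27025 genes with an entry. With the variant TTCGAA added it was in 34 of 46 (73.9%) against 21.7%. The CCAAT box, also on both strands, was in 34 of 46 (73.9%) against 41.1%, and both TTTGAA and CCAAT in 27 (58.7%) against 7.97%. High shares were not particular to the 54. In the lists described below, TTTGAA and CCAAT were in 64.5% and 67.7% of 31 other genes that peak in G2 and mitosis. They were in 12.5% and 87.5% of 8 S phase genes, and in 14.3% and 35.7% of 14 subunits of the anaphase-promoting complex. In a window of 100 bases before to 50 after, TTTGAA was in 30 of 46 (65.2%) against 9.23%. Of all TTTGAA matches in the genes' entries, 71.7% began within 50 bases before the start site or after it, against 25.3% over all entries. The motifs do not overlap one another in their letters (CCAAT reads ATTGG on the other strand, TTTGAA reads TTCAAA, and TTCGAA reads the same on both). A match is a run of letters and was not tested as a binding site.

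**Figure D5:**
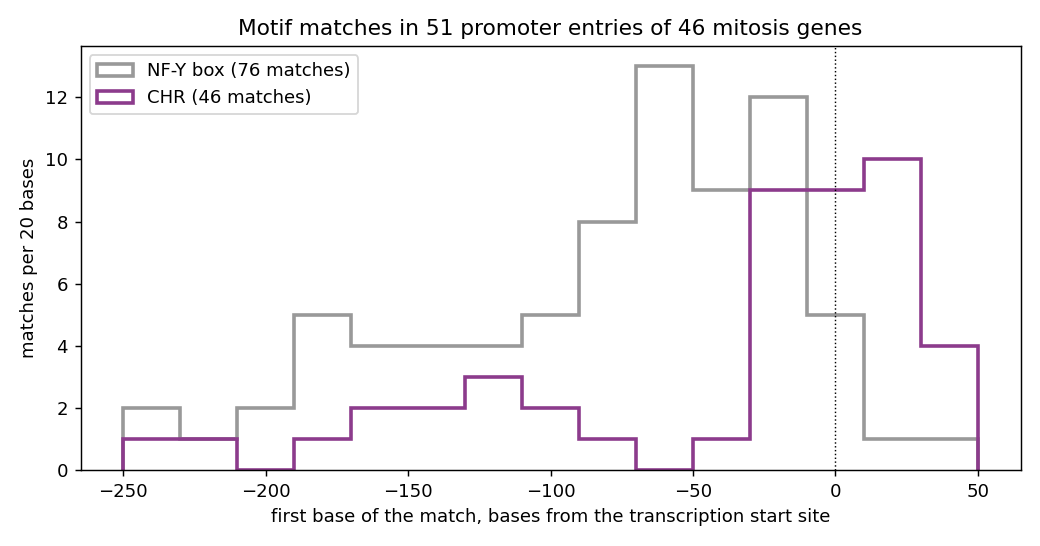
Number of CHR (46) and NF-Y box (76) matches in 51 promoter entries of 46 mitosis genes per 20 bases, by distance of their first base from the transcription start site. Of the CHR matches, 33 begin from 50 bases before the start site onward.

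The 9 promoters printed here run from 100 bases before the start site to 30 after, 5′ to 3′ on the strand of the gene, with TTTGAA (or TTCAAA, its reverse) and CCAAT (or ATTGG, its reverse) in capitals. The first 7 are of genes described above with a CHR there. Bub3 and Pttg1 are shown because they had the highest levels in 2+3d-C, a choice made after the values were seen. They lie at Cdk1 chr10:69352883-69353012 (minus strand), Ccnb2 chr9:70421525-70421654 (minus strand), Cdc20 chr4:118437314-118437443 (minus strand), Cenpa chr5:30666786-30666915 (plus strand), Kif22 chr7:127042391-127042520 (minus strand), Racgap1 chr15:99651627-99651756 (minus strand), Ncapg chr5:45669825-45669954 (plus strand), Bub3 chr7:131560270-131560399 (plus strand) and Pttg1 chr11:43425952-43426081 (minus strand). Cdk1 holds CHR matches 71 and 15 bases before the start site, Cdc20 1 at 18 before, and Cenpa 1 at 16 after.
Cdk1: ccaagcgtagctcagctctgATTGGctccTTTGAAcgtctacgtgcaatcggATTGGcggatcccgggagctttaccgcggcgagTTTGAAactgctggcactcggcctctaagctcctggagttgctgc
Ccnb2: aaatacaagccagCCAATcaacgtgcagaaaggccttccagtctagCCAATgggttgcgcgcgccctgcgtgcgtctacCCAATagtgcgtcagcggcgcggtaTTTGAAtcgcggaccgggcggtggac
Cdc20: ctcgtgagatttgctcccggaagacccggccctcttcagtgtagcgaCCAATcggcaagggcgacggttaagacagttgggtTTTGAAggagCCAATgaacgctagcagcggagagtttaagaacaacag
Cenpa: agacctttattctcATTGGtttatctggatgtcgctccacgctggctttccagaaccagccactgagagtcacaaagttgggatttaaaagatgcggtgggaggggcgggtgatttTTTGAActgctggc
Kif22: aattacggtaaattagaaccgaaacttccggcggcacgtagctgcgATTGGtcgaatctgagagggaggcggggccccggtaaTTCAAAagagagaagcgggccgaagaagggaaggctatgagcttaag
Racgap1: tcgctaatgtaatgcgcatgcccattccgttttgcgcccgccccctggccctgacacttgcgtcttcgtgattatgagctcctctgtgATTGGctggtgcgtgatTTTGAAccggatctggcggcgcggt
Ncapg: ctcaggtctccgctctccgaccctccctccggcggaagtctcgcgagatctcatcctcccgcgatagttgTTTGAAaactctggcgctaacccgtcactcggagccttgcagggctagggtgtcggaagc
Bub3: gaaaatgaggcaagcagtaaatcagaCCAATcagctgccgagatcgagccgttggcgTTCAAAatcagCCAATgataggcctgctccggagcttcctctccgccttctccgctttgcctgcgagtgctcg
Pttg1: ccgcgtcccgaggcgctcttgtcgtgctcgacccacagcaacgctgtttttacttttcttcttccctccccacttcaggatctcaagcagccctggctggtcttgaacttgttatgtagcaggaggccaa
In Ccnb2 the CHR printed begins 4 bases after the start site behind CCAAT boxes 87, 54 and 21 bases before it. Bub3 has a TTCAAA 43 bases before the start site between CCAAT boxes at 74 and 32, and Pttg1 has none of these motifs in its whole entry. That entry lies within the annotated gene, whose 5′ end is at chr11:43426251. The bases before this end were not searched, so a motif there would be missed.

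Of the 34 genes with TTTGAA or TTCGAA, 33 were called lower in 2+3d-C against 5d-U, beside 13.4% of all tested genes. The median log2 fold change of the 34 was -7.96, and Cenpn was the one not called. Of the 12 with neither in their entries, 10 were called lower, with a median of -5.475, and Kif18a and Pttg1 were not. The entry of Pttg1 does not reach the annotated 5′ end of the gene. Birc5 and Ccnb1 are among those with neither. The 8 genes without an entry were not searched, and 7 of them were called lower, with a median of -6.61. The difference between genes with and without a motif was not tested, nor was a part of the motifs in the fall.

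Other genes of mitosis, from lists chosen by function, fell with the 54. For comparison, 13.4% of all tested genes were called lower in 2+3d-C against 5d-U and 4.47% in 2+3d-C against F. Of 25 other inner and outer kinetochore genes, 18 fell and none rose in 2+3d-C against 5d-U, with a median log2 fold change of -4.75, and 5 fell against F. Zwint and Cenpx had the highest mean RPKM. Zwint, a partner of the outer kinetochore, was at 61, 98.7 and 166 RPKM for 5d-U and 53.6, 109 and 61 for 2+3d-C, which overlapped, and Cenpx, of the inner kinetochore, fell (-2.86, SE 0.62, adjusted p = 0.00467). Ska2 and Knl1 had the smallest p of the list (adjusted p = 3.16e-05 and 4.12e-05). Of 37 other genes whose mRNA peaks in G2 and mitosis, 33 fell and none rose against 5d-U, with a median of -6.87 (-6.10 with genes at the limit at their bound), and 14 fell against F. Ube2c, the ubiquitin-conjugating enzyme of the anaphase-promoting complex, was at 146, 188 and 394 RPKM for 5d-U and 0, 1.77 and 0 for 2+3d-C (-8.94, SE 1.67, adjusted p = 0.00178), though 22.8% of its exon length overlaps other genes. Kpna2, an importin, kept 32, 60.2 and 38.3 RPKM in 2+3d-C against 92.4, 176 and 123 in 5d-U (-1.59, SE 0.40, adjusted p = 0.0118), a fall that passed in 16 of 20 alternatives. Shcbp1 and Cdca3, with no read in 2+3d-C, were at least 749-fold and 1170-fold lower than 5d-U.

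Cdc20 activates the anaphase-promoting complex, and securin, which that complex destroys, holds inactive the separase that cuts cohesin. Of 15 subunits of the anaphase-promoting complex itself, 6 fell in 2+3d-C against 5d-U and none rose, beside 13.4% of all tested genes called lower. The median was -1.33 beside -1.05 over all tested genes. The latter moved with the genes that were tested: above a mean of 5 CPM it was -0.0001 for all genes and -1.24 for these subunits, with the 2 groups alone -0.21 and -1.30, and with silent-family reads subtracted -0.23 and -1.22. Cdc16, with the highest mean of them, was at 61.4, 105 and 70.04 RPKM for 5d-U and 40.6, 64.4 and 61.8 for 2+3d-C. Anapc5, the next, was at 45, 69 and 39.5 and 45.4, 58.7 and 46. Neither passed, and both overlapped. Anapc4 and Cdc26 fell (-2.84, SE 0.47, adjusted p = 0.000793, and -2.78, SE 0.48, adjusted p = 0.00112), and Anapc7 alone had a value above 0 (0.61, SE 0.37, adjusted p = 0.2). Of 10 cohesin genes, whose ring holds sister chromatids together until separase cuts it, 1 rose against 5d-U and none fell, a share near the 9.14% of all tested genes called higher, with a median of 1.07. Above a mean of 5 CPM, 2329 of 10816 genes were called higher. The cohesin gene that rose was Nipbl, the loader of cohesin, at 6.51, 2.76 and 4.95 RPKM for 5d-U and 18.3, 38.6 and 24.5 for 2+3d-C (2.52, SE 0.49, adjusted p = 0.00244). It was also higher than in F (1.88, SE 0.48, adjusted p = 0.0358), the latter in 12 of 20 alternatives. The count was 3 without replicate 1 of F and 4 without replicate 5 of 2+3d-C. Smc1a, a ring subunit, was at 18.1, 26.7 and 35.7 RPKM for 5d-U and 62.3, 61.7 and 59.7 for 2+3d-C (1.19, SE 0.43, adjusted p = 0.0602). Rad21, the subunit that separase cuts, was at 1.05 (SE 0.52, adjusted p = 0.131). Smc3, the other ring subunit, was at 18.9, 26.9 and 57.1 RPKM for 5d-U and 21.6, 36.9 and 15.1 for 2+3d-C.

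Factors that act at CHR and E2F promoters came next. Of 19 cell cycle transcription factors 7 fell and 1 rose in 2+3d-C against 5d-U, with a median of -1.57 beside -1.05 over all tested genes. Of all tested genes, 13.4% were called lower and 9.14% higher, so the 1 that rose is no excess. Mybl2, which encodes B-Myb, had an RPKM of 0.117, 1.66 and 0.672 for F, 27.6, 27.1 and 22.7 for 2d-U, 11.9, 13.4 and 7.49 for 5d-U and 0, 0 and 1.34 for 2+3d-C. In 2+3d-C it was held by replicate 10 alone, and it fell against 5d-U (-4.57, SE 1.45, adjusted p = 0.035), as did Tfdp1, the partner of E2Fs (-1.69, SE 0.45, adjusted p = 0.0147). Both calls held in 17 of 20 alternatives. Foxm1 likewise had its 2+3d-C reads in replicate 10, at 0.00326, 0.021 and 1.94 RPKM beside 3.21, 2.77 and 2.48 for 5d-U and 14.7, 12.5 and 13.2 for 2d-U, and did not pass (-2.09, SE 1.21, adjusted p = 0.183). These genes are named for their part at the CHR, after their values were seen. E2f8 and E2f7, repressors of the E2F family, had the smallest p of the list. E2f8 had no read in 2+3d-C and was at least 69.9-fold lower than 5d-U, and E2f7 was at -6.34 (SE 0.92, adjusted p = 0.000309). E2f4, the E2F of the DREAM complex, had an RPKM of 13.7, 26.9 and 23.3 for F, 134, 133 and 153 for 2d-U, 28.5, 21.4 and 26.3 for 5d-U and 53.1, 52.7 and 52.2 for 2+3d-C. The 2+3d-C libraries were close together, above each 5d-U and each F library and below each 2d-U library, and it passed as higher than in 5d-U (1.05, SE 0.35, adjusted p = 0.0451) and F (1.31, SE 0.36, adjusted p = 0.0441). That call held in 5 of 20 alternatives against 5d-U and in 1 of 20 against F, and it was lost when any single 5d-U or 2+3d-C library was left out. Rbl2, the p130 subunit of the same complex, had an RPKM of 2.85, 2.84 and 3.6 for F, 0.728, 0.767 and 0.469 for 2d-U, 0.512, 0.725 and 0.505 for 5d-U and 2.93, 0.432 and 2.47 for 2+3d-C, with 21.0% of its exon length overlapping other genes. Replicates 4 and 10 of 2+3d-C were near the level of F and replicate 5 at that of the cultures, at 1.75 (SE 0.68, adjusted p = 0.0757) against 5d-U. Lin52, of the same complex, was at 1.14 (SE 0.56, adjusted p = 0.126), and Lin54, Nfya and Nfyb did not pass.

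Genes of S phase, the phase before, were low in the same libraries. Of 12 such genes 10 fell and none rose in 2+3d-C against 5d-U, with a median of -3.08, and 11 fell against 2d-U. The shares of all tested genes called lower there were 13.4% and 8.63%. Against F none fell, beside 4.47% of all tested genes, and 1 rose, beside 1.94% called higher, with a median of -0.15 beside -2.90 for the mitosis genes. The gene that rose, named after its values were seen, was Mcm7 of the replicative helicase, at 7.15, 8.05 and 6.77 RPKM for F and 18.3, 22.5 and 17.3 for 2+3d-C (1.4, SE 0.36, adjusted p = 0.0365). That call held in 7 of 20 alternatives. Rrm2, a subunit of ribonucleotide reductase, was at 856, 1032 and 724 RPKM in 5d-U, 10.3, 18.4 and 2.19 in 2+3d-C and 22.2, 51.6 and 3.68 in F (-6.41, SE 0.94, adjusted p = 0.000329 against 5d-U). Mcm6, of the same helicase, fell as well (-3.44, SE 0.46, adjusted p = 0.000174). Pcna, the sliding clamp of DNA polymerase, kept 49, 107 and 35 RPKM in 2+3d-C, did not pass (-1.33, SE 0.54, adjusted p = 0.083) and overlapped F, at 79.7, 26.6 and 32.2 RPKM. The difference between the lists was not tested.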

How the data were processed

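RNA was measured in 12 libraries, 3 in each of 4 groups (F, 2+3d-C, 2d-U and 5d-U), grouped by their labels. Sorted cells were lysed and amplified with the SMART-seq v4 kit and sequenced as single-end reads. Sorted batches were spread over the conditions, and no source used here says which libraries share one. The authors deposited raw read counts per gene, made with nf-core/rnaseq and featureCounts 1.6.4 over exons of the mm10 build (GENCODE annotation), without strand. The aligner is not given in the sources used here. Depth ran from 12540745 to 62424851 reads on genes.

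Counts were tested in R 4.3.3 with edgeR 4.0.16 (TMM scaling, filterByExpr, quasi-likelihood fit of all 12 libraries with group as the only term, 6 comparisons, Benjamini-Hochberg adjustment over 22635 genes, threshold 0.05), and the standard error was taken as the log2 fold change divided by the root of F. The code was tested on simulated data with 200 changed genes. DESeq2 1.42.0, other filters and scaling, subsets of libraries, a replicate block and 2 treatments of reads on silent gene families were alternatives. A gene at 3 or fewer reads in each 2+3d-C library was given a limit in place of a fold. Promoters were read from RefSeq by symbol.

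The genes and lists were chosen with earlier results of these data known. Named genes were, per role class, the pair with the highest mean RPKM and the one with the smallest p in 2+3d-C against 5d-U, and all genes that did not pass. For the other lists the same rule was used, with genes against the direction of the list. Others are named in the text as chosen after their values were seen or to complete a class.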

Additional observations from a re-analysis of the deposited data

How the results depend on the processing

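Over the alternatives, the counts of mitosis genes called in 2+3d-C against each uncompressed culture, in 2d-U against F and in 5d-U against F stayed within 1.5 times their values, and 44 of 50, 44 of 49, 30 of 52 and 29 of 46 genes were called in every alternative. In 2+3d-C against F the count of 28 went to 15 with the libraries of the 2 groups alone, to 18 with a term for libraries with silent-family reads, and to between 18 and 37 with single libraries left out. In 5d-U against 2d-U it went from 0 to 2 with the 2 groups alone. With single libraries left out, the counts ran from 49 to 53 against 5d-U and against 2d-U, from 36 to 53 in 2d-U against F and from 36 to 51 in 5d-U against F, and stayed at 0 in 5d-U against 2d-U. The cohesin count of 1 was 3 with DESeq2, above a mean of 5 CPM and with silent-family reads subtracted, 2 without TMM, without the filter and with the 2 groups alone, and 1 to 4 with single libraries left out. The transcription factor count of 8 was 5 with the 2 groups alone. Pttg1 in 2+3d-C against 5d-U changed sign with single libraries left out (-0.54 to 0.94). The cause of these changes was not tested. Depth limits the folds of genes with few reads, for which 3 reads per library were taken.

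Whether replicate numbers shared between groups pair the libraries is not stated. Correlations of deviations from group means ran from -0.42 to 0.03 between libraries with a shared number. Of 9 such libraries, 0 correlated best with their own number. With 3 libraries per group, and silent-family reads in some of them, a shared sort could be missed, so these values do not settle the pairing. With a replicate block, 47, 47, 33, 0, 38 and 34 mitosis genes were called in 2+3d-C against 5d-U, 2d-U and F, 5d-U against 2d-U, and 2d-U and 5d-U against F. In 2+3d-C against 5d-U the block ended the calls of Bub3, Mad2l1, Cenpi and Smc4 (adjusted p = 0.521, 0.565, 0.127 and 0.405) and added Cdc25c. With the block the anaphase-promoting complex count of 6 went to 0 and the S phase count of 10 to 6, and Pcna against 5d-U (0.86), Smc4 in 2+3d-C against F (0.36) and Pttg1 in 5d-U against F (-0.49) changed sign.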
